A study of Mus musculus with 8 samples.

Results

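The genes described here are the conjugating enzymes of mouse liver: the UDP-glucuronosyltransferases (UGT), the sulfotransferases (SULT) and the glutathione S-transferases (GST). Members were chosen by name from the deposited gene table. The rule used no values but was written with earlier results of these data known. Of the table's 21899 genes, 68 qualified: 21 UGT, 21 SULT and 26 GST genes, the last including the microsomal Mgst genes. Of the 68, 7 had no reads in any library, 15 had too few reads for the test, with at most 26 in a library, and 46 were tested. Liver RNA was sequenced from 4 P2X4R-deficient and 4 wild-type mouse samples, all taken 8 h after ConA. P2X4R is an ATP-gated ion channel, and ConA (concanavalin A) is a lectin that causes T cell-mediated hepatitis. For the deficient group, the sample labels give a knockdown of P2X4R and the series description a homozygous loss; the sources used here give neither the altered exon nor the strain, sex, age or handling days of the animals. All 8 samples received ConA, and livers without it were not analysed here.

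Conjugation makes lipophilic compounds more soluble and ready for export into bile or blood. UGTs sit in the endoplasmic reticulum and transfer glucuronic acid from UDP-glucuronic acid, cytosolic SULTs transfer sulfonate from the donor PAPS, and GSTs join glutathione to electrophiles. Hepatocytes are the main site of all 3 reactions in the body, and their substrates include bilirubin, steroids, bile acids, thyroid hormone and many drugs.

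Library totals ran from 15445285 to 16604190 counted reads, of which the 68 genes took 0.417% to 0.667%. P2rx4, which encodes the targeted receptor, had 286, 401, 467 and 516 reads in deficient libraries 1 to 4 and 692, 888, 906 and 898 in wild-type libraries 1 to 4. Every deficient library was below every wild-type library, though none was at 0, and the log2 fold change was -1.18 (SE 0.19, edgeR adjusted p = 0.00481). Reads were counted per gene, with no division by exon. All 10 hepatocyte markers examined were detected and tested. Their summed level was lower in the deficient group, at 73824 to 99465 CPM (reads scaled to library size after TMM) against 107224 to 121080 CPM. Albumin (Alb) itself had a log2 fold change of -0.39 (adjusted p = 0.0884), and in bulk tissue fewer hepatocytes and less RNA per hepatocyte cannot be told apart. Whether the 4 samples of a group are 4 animals is not stated in the labels, and p-values cover only the spread among the samples.

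Conjugating enzymes were mostly lower in the deficient livers. Of the 46 tested genes, 17 fell (37.0%) and 0 rose at an edgeR adjusted p under 0.05, a rule that called 19.9% of all 11380 genes tested: 1209 lower, 10.6%, and 1055 higher, 9.27%. At an unadjusted p under 0.05, 26 were lower and 1 was higher, and DESeq2 called 19 lower and 0 higher. Log2 fold changes were below 0 for 39 of the 46, with a median of -0.60, beside a median of -0.00147 and 50.1% below 0 for all genes tested. By class, 9 of 14 UGT genes, 3 of 11 SULT genes and 5 of 21 GST genes fell, with median log2 fold changes of -0.94, -0.72 and -0.25. Groups did not overlap, with every deficient library lower, for 6 UGT, 4 SULT and 7 GST genes, 17 in all, beside 12.3% of all genes tested. The difference between the classes was not tested.

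These counts depended on single libraries. The 17 calls became 10 without deficient 1 or without deficient 3, 9 without wild type 3 and 11 without wild type 4. UGT calls became 5 without deficient 3, wild type 3 or wild type 4, and GST calls became 2 when deficient 1 or 3 or wild type 1 or 3 was left out and 3 without wild type 4. Without wild type 1, the library with the highest Sult2a level, 14 genes fell: 10 UGT, 2 SULT and 2 GST genes. Scaling by library totals alone raised the median of all genes by 0.14 on the log2 scale, gave 843 lower and 1731 higher calls over all genes, and left 13 members lower and 0 higher. Of the 17, 8 were called under all 16 alternatives: Ugt2b34, Ugt2b35, Ugt2b36, Ugt2b5, Sult1c2, Sult2a8, Gstm4 and Gsto1. In none of the alternatives did a called member change its direction.

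**Figure D1:**
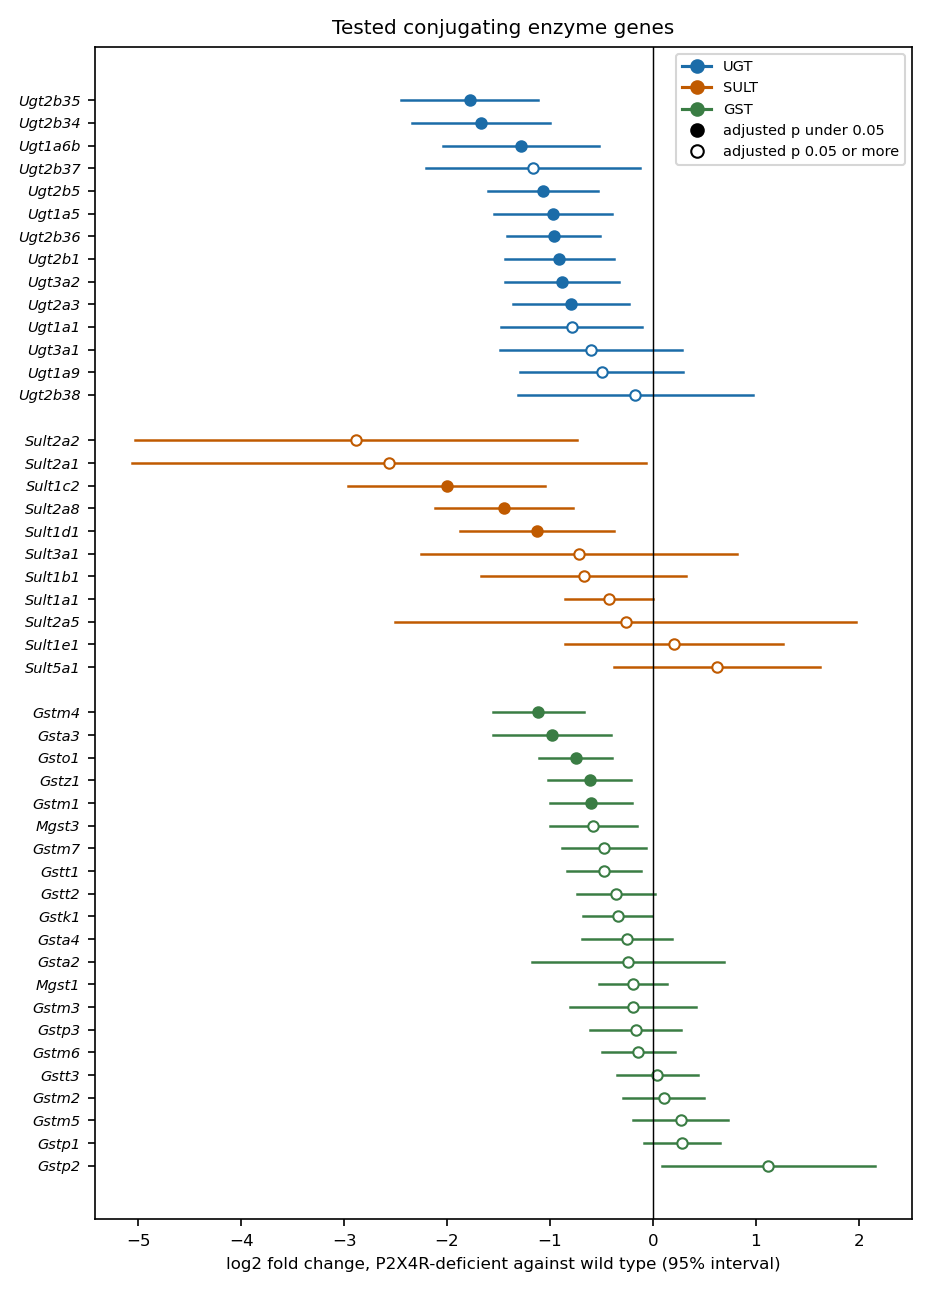
Log2 fold changes (x axis; deficient against wild type, 4 libraries each) of the 46 tested genes with 95% intervals, grouped by class; filled points have an edgeR adjusted p under 0.05. All 17 filled points lie below 0, and the intervals of Sult2a1, Sult2a2 and Sult2a5 are the widest.

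Summed over its genes, the deposited FPKM (reads scaled to gene length and library size, which allows levels of genes of different length to be added) was lower in the deficient livers for each class. UGT genes together had 213, 406, 288 and 338 FPKM in deficient libraries 1 to 4 and 442, 540, 718 and 540 FPKM in wild-type libraries 1 to 4, means of 311 ± 81.1 and 560 ± 115 (SD, n = 4), or 55.6% of wild type. SULT genes had 389, 349, 208 and 416 FPKM against 881, 508, 481 and 426 FPKM, 59.3% of wild type. That share was 72.2% without wild type 1, the library with the highest sum. GST genes had 1618, 1647, 1696 and 1569 FPKM against 2251, 1737, 1855 and 1789 FPKM, 85.6% of wild type, or 91.0% without wild type 1. No deficient library reached a wild-type library in any of the 3 sums. Set against the summed FPKM of the 10 hepatocyte markers, the GST sum was 39.6 ± 3.43 per 1000 marker FPKM in deficient and 39.8 ± 4.15 in wild-type libraries (SD, n = 4). On the same scale the UGT sum was 7.44 ± 1.41 against 11.8 ± 2.88 and the SULT sum 8.32 ± 2.59 against 11.9 ± 3.86 (SD, n = 4). On this scale the 2 groups overlapped in each class.

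**Figure D2:**
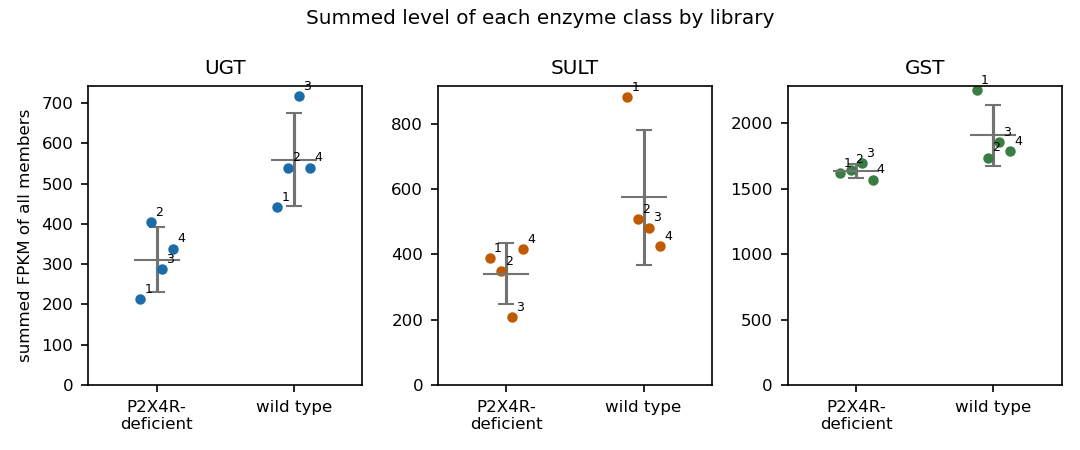
Summed FPKM of all genes of a class (y axis, from 0) in each library, with the library number beside its point; bars give the group mean and SD. The deficient libraries lie below the wild-type libraries in each panel, and wild type 1 is the highest point of the SULT and GST panels and the lowest wild-type point of the UGT panel.

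The UGT genes of the Ugt2b subfamily, which glucuronidate steroids and bile acids, held the largest falls of their class. Ugt2b35 (chromosome 5, 87148719 to 87161134 in the deposited table, whose genome build is not stated) stood at 6.46, 12.8, 17.4 and 13.7 CPM in deficient libraries 1 to 4 and at 31.3, 31.9, 65.7 and 44.2 CPM in wild-type libraries 1 to 4. Its log2 fold change was -1.78 (SE 0.31, edgeR adjusted p = 0.00554), 29.1% of wild type. Ugt2b34 stood at 43.1, 112, 62.6 and 92.9 CPM against 156, 257, 351 and 223 CPM, a log2 fold change of -1.67 (SE 0.31, adjusted p = 0.00702). In both genes the groups did not overlap, deficient 1 was the lowest library and wild type 3 the highest.

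Ugt2b36 was the UGT gene with the highest level per length, at a mean of 109 FPKM over the 8 libraries and 25.1% of the class sum. It had 124, 214, 116 and 169 CPM in deficient and 277, 308, 352 and 278 CPM in wild-type libraries, with no overlap and a log2 fold change of -0.96 (SE 0.21, adjusted p = 0.0114). Ugt2b5, the next at 86.6 FPKM, had 68.4, 135, 109 and 113 CPM against 159, 207, 314 and 211 CPM, again without overlap (log2 fold change -1.07, SE 0.24, adjusted p = 0.0139). Ugt2b1 had a log2 fold change of -0.91 (SE 0.24, adjusted p = 0.0241), with deficient 2 at 92.1 CPM above wild type 1 at 89.9 CPM. Its call was lost if deficient 3 (adjusted p = 0.0652) or wild type 3 (0.079) was left out. Together the 7 Ugt2b genes were at 52.0% of the wild-type summed FPKM.

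Ugt2b37 and Ugt2b38 were the other Ugt2b genes, both low, and neither passed the test. Ugt2b37 had a log2 fold change of -1.17 (95% interval -2.21 to -0.13, adjusted p = 0.102) and Ugt2b38 one of -0.17 (95% interval -1.31 to 0.97, adjusted p = 0.846), at 1.93 to 8.56 CPM in deficient and 1.9 to 10.7 CPM in wild-type libraries. Ugt2b38 is a near copy of Ugt2b5: in the GENCODE M21 transcripts their coding sequences were 97.0% identical, and 24.7% of the 100-base windows of the Ugt2b5 transcript occurred in another gene. Their counts are therefore uncertain where reads fell in those windows. The stretches below, coding bases 1467 to 1526 of each, are the 60 bases in which the pair differed most, and are shown because few positions tell the genes apart. Capitals mark the 9 bases that differ.
Ugt2b5: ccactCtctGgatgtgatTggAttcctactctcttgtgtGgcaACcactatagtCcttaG
Ugt2b38: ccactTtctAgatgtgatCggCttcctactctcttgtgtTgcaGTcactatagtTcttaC

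In contrast, Ugt2b34, Ugt2b35, Ugt2b36 and Ugt2b1 shared between 0% and 0.407% of such windows with any other gene, so their counts rest almost wholly on sequence of their own. The Ugt2b and Ugt2a genes lie in a cluster on chromosome 5 with Sult1b1, Sult1d1 and Sult1e1. In the table's coordinates the 13 members span 87037626 to 87739453. Of 11 tested there, 7 fell, beside 10.6% called lower of all genes tested. These 7 genes are also counted in their classes above. P2rx4 is on the same chromosome, with its start 35.1 Mb beyond the end of the cluster.

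Ugt2a3 and Ugt3a2 fell as well, with less margin. Ugt2a3 had 59, 112, 69.1 and 103 CPM in deficient and 94, 151, 202 and 149 CPM in wild-type libraries, a log2 fold change of -0.79 (SE 0.26, edgeR adjusted p = 0.0485). The call was lost in 9 of 16 alternatives, among them without deficient 1, 3 or 4 and without wild type 2, 3 or 4, where the adjusted p ranged from 0.0553 to 0.15. Ugt3a2, of a subfamily that uses sugar donors other than UDP-glucuronic acid, had 89.4, 182, 108 and 130 CPM against 156, 240, 323 and 220 CPM (log2 fold change -0.88, SE 0.26, adjusted p = 0.0322). Leaving out deficient 1, 3 or 4 or wild type 2, 3 or 4 gave adjusted p-values of 0.0558 to 0.104. Its neighbour Ugt3a1, 93.2% identical in coding sequence, had a log2 fold change of -0.60 (95% interval -1.48 to 0.28, adjusted p = 0.317). For these 3 genes the groups overlapped, since deficient 2 was above wild type 1.

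The Ugt1a genes share most of their transcript: alternative first exons are joined to the same remaining exons. Ugt1a1, which conjugates bilirubin, and Ugt1a6b, which conjugates small phenols, are examples. In the GENCODE M21 transcripts the last 737 coding bases were identical in all 9 Ugt1a genes, and 58.2% to 100% of the 100-base windows of a Ugt1a transcript occurred in another gene. For each gene only its transcript of longest coding sequence was used, and the 100% is that of Ugt1a6a. Pairs can share more: the last 851 coding bases were identical in Ugt1a5 and Ugt1a2 and the last 774 in Ugt1a6b and Ugt1a6a. All 1593 coding bases were identical in the transcripts used for Ugt1a6a and Ugt1a7c. Other transcripts of these genes were not aligned, so this is not an identity of the genes. The stretches below span the point from which all 9 are identical, to show that reads beyond it cannot be assigned to one gene. Capitals mark the first 30 bases shared by all 9, and lower case the 30 bases before them, which may still be shared with some of the other genes.
Ugt1a1: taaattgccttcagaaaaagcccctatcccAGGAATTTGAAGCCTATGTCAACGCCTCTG
Ugt1a5: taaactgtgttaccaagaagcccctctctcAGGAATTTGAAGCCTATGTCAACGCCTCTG
Ugt1a6b: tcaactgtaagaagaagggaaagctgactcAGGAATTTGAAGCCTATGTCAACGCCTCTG
Ugt1a9: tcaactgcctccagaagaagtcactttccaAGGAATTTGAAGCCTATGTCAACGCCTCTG

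How reads of the common exons were divided is not stated, so values of single Ugt1a genes are uncertain. Summed over the 9 genes, the FPKM was 14.7, 38.8, 32.2 and 26.8 in deficient and 40.6, 44.8, 45.8 and 46.2 in wild-type libraries, 63.4% of wild type and without overlap. As counted, Ugt1a6b had a log2 fold change of -1.28 (SE 0.35, edgeR adjusted p = 0.0257) and Ugt1a5 one of -0.97 (SE 0.26, adjusted p = 0.0248). The Ugt1a6b call was lost without deficient 4, wild type 3 or wild type 4 (adjusted p 0.0513 to 0.0779), and the Ugt1a5 call without deficient 1 or 3 or wild type 2 or 4 (0.0511 to 0.0685). Ugt1a1 had 6.76, 20.7, 22 and 10.1 CPM against 26.6, 23.3, 30.5 and 22.6 CPM, every deficient library being lower, but did not pass (log2 fold change -0.79, SE 0.32, adjusted p = 0.0957). Ugt1a9 had a log2 fold change of -0.50 (95% interval -1.29 to 0.29, adjusted p = 0.355). Of the other 5, Ugt1a2 and Ugt1a8 had 0 reads, and Ugt1a10, Ugt1a6a and Ugt1a7c had 7, 24 and 26 reads over all libraries. Ugt2a1 and Ugt2a2, which also share most of their transcript, had 0 reads.

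UGT genes moved together from library to library within a group. Deficient 1 was the lowest deficient library for 13 of the 14 tested genes, wild type 1 the lowest wild-type library for 11 and wild type 3 the highest for 12. All 14 log2 fold changes were below 0, with the exception of Ugt2b38 under scaling by library totals and in limma on log2 FPKM, where it was between 0.0032 and 0.085, and without deficient 1 (0.090) or wild type 3 (0.43). Without deficient 1 the median of the class was -0.77 and without wild type 3 it was -0.81.

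**Figure D3:**
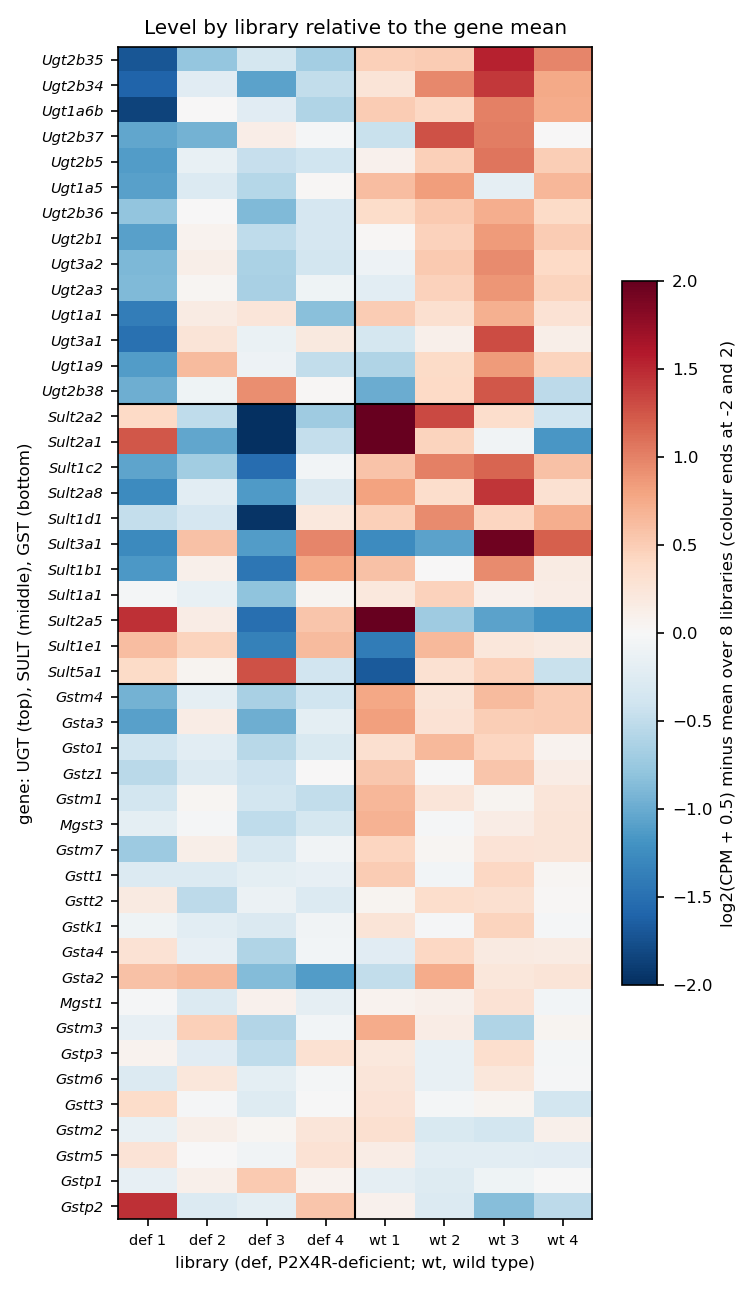
Level of each tested gene by library (columns) as log2(CPM + 0.5) minus the gene's mean over the 8 libraries, red above and blue below it; black lines separate the groups and the UGT, SULT and GST genes. The UGT rows are mostly blue in the deficient and red in the wild-type columns, and the rows of Sult2a1 and Sult2a2 span the widest range, with wild type 1 the highest.

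Among the SULT genes, 3 fell. Sult2a8, a sulfotransferase of bile acids (chromosome 7, 14144611 to 14180694), had 55.5, 115, 60.7 and 109 CPM in deficient and 233, 170, 361 and 165 CPM in wild-type libraries. Its log2 fold change was -1.45 (SE 0.31, edgeR adjusted p = 0.0109), 36.7% of wild type, with no overlap. Sult1c2 was low in all livers, at 0.664, 0.994, 0.347 and 1.84 CPM against 3.1, 4.36, 4.95 and 3.14 CPM, a total of 300 reads in the 8 libraries. Its groups did not overlap and its log2 fold change was -2.005 (SE 0.44, adjusted p = 0.0122). Sult1d1, which sulfonates catechols, had 39.5, 43.4, 13.7 and 63.5 CPM against 76.6, 106, 74.7 and 91.5 CPM (log2 fold change -1.12, SE 0.34, adjusted p = 0.0392). That call was lost in 7 of 16 alternatives, among them without deficient 1 or 2 or any 1 of the 4 wild-type libraries, with adjusted p-values of 0.0523 to 0.0834. Sult2a8, Sult1c2 and Sult1d1 shared no 100-base window with another gene.

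Sult1a1, the main phenol sulfotransferase, was the most abundant SULT gene per length, at a mean of 277 FPKM and 60.6% of the class sum. It had 400, 372, 236 and 428 CPM in deficient and 476, 566, 436 and 454 CPM in wild-type libraries. Every deficient library was lower, by a small margin, and the log2 fold change was -0.43 (95% interval -0.86 to -0.0012, edgeR adjusted p = 0.141).

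Sult2a1, Sult2a2 and Sult2a5, hydroxysteroid sulfotransferases, turned on wild type 1. Sult2a2 had 241 CPM in that library, 12.1 to 41.1 CPM in the other wild-type libraries and 0.347 to 21.6 CPM in deficient ones. Sult2a1 had 118 CPM there, 2.5 to 8.65 CPM in the other wild-type and 0.289 to 15.5 CPM in deficient libraries. Neither passed the test, with log2 fold changes of -2.88 (SE 0.99, edgeR adjusted p = 0.0583) for Sult2a2 and -2.56 (SE 1.15, adjusted p = 0.133) for Sult2a1. Without wild type 1 they were -1.22 (adjusted p = 0.275) and -0.0022 (adjusted p = 0.999). Sult2a2 passed with no expression filter (adjusted p = 0.033), with the replicate number as a block (0.0339) and when wild type 4 was left out (0.0425). Sult2a5, at -0.27 (95% interval -2.51 to 1.98, adjusted p = 0.88), was at 2.34 without wild type 1 (adjusted p = 0.0883). The deficient libraries differed too, since deficient 3 was the lowest of its group for 8 of the 11 tested SULT genes.

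Sult2a1 and Sult2a5 are near copies, with 94.9% of aligned coding bases identical. Sult2a2, whose coding sequence in these transcripts is shorter (582 against 855 bases), is a near copy of both over the part it holds. Of its 582 bases, 570 were identical in the alignment with Sult2a1 and 557 in that with Sult2a5. Counted over all 855 alignment columns, with the positions missing from Sult2a2 included, these are 66.7% and 65.1%. Of the windows of the Sult2a2 transcript, cut as for Ugt2b5, 34.6% occurred in Sult2a1, Sult2a4 or Sult2a5. The share found in another gene was 11.4% for Sult2a1 and 16.6% for Sult2a5. Counts of Sult2a2 are therefore uncertain too where reads fell in those windows. Whether shared reads contributed to the high Sult2a1 and Sult2a2 levels of wild type 1 was not tested. The stretches below are coding bases 379 to 438 of Sult2a1 and Sult2a5, the 60 bases in which these 2 differed most, with the 7 differing bases in capitals. They are shown because counts of this pair depend on such positions.
Sult2a1: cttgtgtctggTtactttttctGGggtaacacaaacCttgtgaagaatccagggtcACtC
Sult2a5: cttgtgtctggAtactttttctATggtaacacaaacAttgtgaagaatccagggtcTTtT

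The other tested SULT genes did not pass and their groups overlapped. Sult1b1, which sulfonates thyroid hormone, had a log2 fold change of -0.67 (95% interval -1.67 to 0.32) and Sult3a1 one of -0.72 (95% interval -2.26 to 0.82). Sult1e1, the estrogen sulfotransferase, had one of 0.21 (95% interval -0.85 to 1.27, -0.11 without wild type 1) and Sult5a1 one of 0.62 (95% interval -0.38 to 1.63). Sult1c1 and Sult2a4 had 0 reads, and Sult2a3, Sult2a6, Sult2a7, Sult2b1, Sult3a2, Sult4a1, Sult6b1 and Sult6b2 had 4 to 69 reads over all libraries. A count of 0 allows up to 3 reads, or 0.172 to 0.211 CPM by library, counting error only.

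Among the GST genes, the 5 falls were in the mu, alpha, omega and zeta subfamilies. Gstm4 (chromosome 3, 107947724 to 107952210) had 6.46, 11.2, 7.98 and 9.65 CPM in deficient and 22.4, 15.5, 20.1 and 18.4 CPM in wild-type libraries, with no overlap. Its log2 fold change was -1.11 (SE 0.20, edgeR adjusted p = 0.00664), 46.3% of wild type, and it was the one GST gene past a 2-fold change among those called. Gsto1, an omega-class enzyme, had 40.9, 46.8, 36.5 and 43.5 CPM against 67.3, 85, 73.3 and 56.4 CPM (log2 fold change -0.75, SE 0.16, adjusted p = 0.0116). Here too the groups did not overlap.

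Gsta3, an alpha-class enzyme (chromosome 1, 21310813 to 21335885), had 164, 387, 178 and 307 CPM in deficient and 619, 430, 493 and 499 CPM in wild-type libraries. Its log2 fold change was -0.98 (SE 0.26, edgeR adjusted p = 0.0248), a call that leaving out deficient 1 (adjusted p = 0.0522) or 3 (0.0691) or wild type 1 (0.0508) or 3 (0.0587) ended. Gstz1, which isomerises maleylacetoacetate in tyrosine breakdown, had 186, 224, 202 and 271 CPM against 391, 268, 395 and 299 CPM (log2 fold change -0.61, SE 0.19, adjusted p = 0.0368). Its call was lost in 10 of 16 alternatives, and without deficient 1, 2 or 3 or wild type 1, 3 or 4 the adjusted p was 0.0566 to 0.111. Gstm1, the second most abundant GST gene at 517 FPKM, had 578, 760, 574 and 528 CPM against 1178, 883, 769 and 876 CPM (log2 fold change -0.60, SE 0.18, adjusted p = 0.0375). That call was lost in 12 of 16 alternatives, with adjusted p-values of 0.0525 to 0.0901 without any 1 library other than deficient 2. Its groups did not overlap, but deficient 2 at 760 CPM was close to wild type 3 at 769 CPM.

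Mgst1, a membrane-bound enzyme of the endoplasmic reticulum and mitochondria, was the most abundant member of any class per length, at 608 FPKM and 34.3% of the GST sum. It had 1201, 1004, 1287 and 1081 CPM in deficient and 1274, 1311, 1483 and 1167 CPM in wild-type libraries. The groups overlapped, and the log2 fold change was -0.20 (95% interval -0.53 to 0.14, edgeR adjusted p = 0.392). Close to the threshold were Mgst3 (log2 fold change -0.58, adjusted p = 0.0542), Gstt1 (-0.48, adjusted p = 0.0602) and Gstm7 (-0.48, adjusted p = 0.0892). Mgst3 and Gstt1 had no overlap between the groups, and both passed in DESeq2. Mgst3 also passed without deficient 2 and without wild type 2, and Gstm7 without deficient 2.

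The pi-class genes ran the other way in value without passing the test. Gstp1 had 147, 176, 239 and 174 CPM in deficient and 146, 138, 156 and 165 CPM in wild-type libraries (log2 fold change 0.28, 95% interval -0.09 to 0.66, edgeR adjusted p = 0.264). Gstp2 had 6.58, 1.62, 1.74 and 3.27 CPM against 2.21, 1.62, 0.923 and 1.28 CPM (log2 fold change 1.12, adjusted p = 0.113, and 0.55 without deficient 1). The summed FPKM of the 3 Gstp genes was 146 ± 24.0 in deficient and 113 ± 10.03 in wild-type libraries (SD, n = 4) without overlap, whereas their summed CPM overlapped. Gstp3 had a log2 fold change of -0.17 (adjusted p = 0.589). Gstp1 and Gstp2 were 98.1% identical in coding sequence, with their last 300 coding bases the same, so reads there cannot be told apart. The stretches below, coding bases 1 to 60, hold 6 of the differing positions, in capitals.
Gstp1: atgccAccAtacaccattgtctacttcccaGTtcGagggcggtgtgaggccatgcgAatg
Gstp2: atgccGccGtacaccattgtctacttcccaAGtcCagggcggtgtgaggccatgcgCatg

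The remaining GST genes did not pass. Gstk1 had no overlap between the groups (log2 fold change -0.34, 95% interval -0.68 to -0.0042), and the groups overlapped for Gstt2 (-0.36), Gsta4 (-0.25), Gsta2 (-0.24), Gstm3 (-0.20), Gstm6 (-0.14), Gstt3 (0.04), Gstm2 (0.11) and Gstm5 (0.27), given as log2 fold changes. Gstt4 had 0 reads, and Gsta1, Gsta5, Gsto2 and Mgst2 had 1 to 52 reads over all libraries. Within the mu subfamily, the log2 ratio of Gstm4 to Gstm5 was 0.65 in deficient and 1.98 in wild-type libraries, and that of Gstm2 to Gstm4 was 2.56 and 1.35. Each difference reached p = 0.0286 in an exact two-sided permutation test, the smallest possible with 4 against 4 libraries. Over the 65 pairs of genes of the same subfamily that were compared, 19 reached it, 0 passed after adjustment and the smallest adjusted p was 0.0977. Since p could not go below 0.0286, a pair could pass only if many more pairs reached that bound. The adjusted values therefore do not decide about single pairs. In both ratios the values of the groups did not overlap, but both contain Gstm4 and so are not separate from its fall.

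Promoters of the members were searched for the core of the antioxidant response element, the binding site of NRF2, as TGACNNNGC on both strands. RefSeq promoter windows (GRCm38.p6, 250 bases before to 50 after a start) were found for 59 of the 68 genes, and the letters occurred in 4 of them: Gsta3, Gstm5, Gstm7 and Mgst1. By window this was 4 of the 71 windows of members, beside 12.4% of all 32851 windows. Of the 4 genes, Gsta3 fell and the others did not pass. The 60 bases around the match are shown for Gsta3, whose RNA fell, and for Mgst1, the most abundant GST gene. Capitals mark the match, which begins 121 bases before the start in Gsta3 (chr1:21240438-21240497, plus strand) and 56 in Mgst1 (chr6:138140445-138140504, plus strand), where it is on the opposite strand. These GRCm38.p6 positions are not on the scale of the table's coordinates.
Gsta3: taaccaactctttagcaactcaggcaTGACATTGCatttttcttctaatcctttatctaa
Mgst1: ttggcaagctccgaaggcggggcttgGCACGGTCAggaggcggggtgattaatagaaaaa

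The core bound by the aryl hydrocarbon receptor with ARNT, GCGTG on either strand, occurred in 14 of the 71 windows of members, beside 32.4% of all windows. These windows belonged to 12 members, among them 3 of the 15 called genes with a window and 6 of the 25 tested but not called. In Gstm5 this core overlapped the first motif. The HNF1 motif, searched on both strands, occurred in 0 members and in 0.0609% of all windows.

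Several genes that supply the sulfonate donor fell. PAPS is made from sulfate and ATP by the PAPS synthases Papss1 and Papss2. Papss1 had 1.93, 1.3, 1.97 and 1.38 CPM in deficient and 7.59, 9.28, 6.92 and 8.46 CPM in wild-type libraries (log2 fold change -2.29, SE 0.24, edgeR adjusted p = 0.00141). Papss2 had 45.4, 62.2, 22.8 and 67.7 CPM against 141, 150, 189 and 147 CPM (log2 fold change -1.66, SE 0.28, adjusted p = 0.00546). The hepatocyte sulfate carrier Slc26a1 had 12.2, 23.4, 22 and 22.9 CPM against 57.1, 51.5, 76.1 and 50.7 CPM (log2 fold change -1.55, SE 0.22, adjusted p = 0.00419). All 3 had no overlap between the groups and were called under all 16 alternatives.

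Of the 10 tested genes of sulfate and PAPS supply, 4 fell and 1 rose, with a median log2 fold change of -0.35. These calls were 50% of those tested, beside 19.9% of all genes tested. The other fall was in Suox, sulfite oxidase, which makes sulfate (log2 fold change -0.68, adjusted p = 0.0309). It was lost in 7 of 16 alternatives: without deficient 1 (0.0725), deficient 3 (0.0695) or wild type 3 (0.0966), with library totals (0.0614), in both limma fits (0.0713 and 0.0718) and with the replicate block (0.0526). The sulfate carrier Slc26a2 rose (log2 fold change 1.18, adjusted p = 0.0333), a call lost without deficient 1, 2 or 3 or wild type 1, 3 or 4 (0.0556 to 0.0878) and with the replicate block (0.051).

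The other donors are UDP-glucuronic acid and glutathione. Of 6 tested genes of UDP-glucuronic acid supply, Slc35d1, which carries the donor into the endoplasmic reticulum, fell (log2 fold change -0.61, edgeR adjusted p = 0.0352) and 0 rose. That was 16.7% of the 6, beside 19.9% of all genes tested. The Slc35d1 call was lost in 10 of 16 alternatives, among them without deficient 1, 3 or 4 or wild type 2, 3 or 4 (0.0613 to 0.104). Ugp2, which makes UDP-glucose, had a log2 fold change of -0.54 (adjusted p = 0.0813) and Ugdh, which oxidises it to the donor, one of 0.14 (adjusted p = 0.696; -0.055 without deficient 3).

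Of 15 tested genes of glutathione synthesis and turnover, 3 fell (20%, beside 19.9% called of all genes tested) and 0 rose. They were Cth, which makes cysteine (log2 fold change -1.40, adjusted p = 0.0198), the peptidase Anpep (-0.66, adjusted p = 0.0152) and the glutathione-degrading Chac1 (-0.85, adjusted p = 0.0311). Without wild type 3 none of them passed, at adjusted p-values of 0.0647, 0.0511 and 0.054, and Chac1 was also lost without deficient 1, 3 or 4 or wild type 2 (0.0691 to 0.0853). The synthesis enzymes Gclc, Gclm and Gss had log2 fold changes of -0.03, -0.36 and -0.05 and did not pass, and those of Gclc and Gss were at 0.12 and 0.094 under scaling by library totals.

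**Figure D4:**
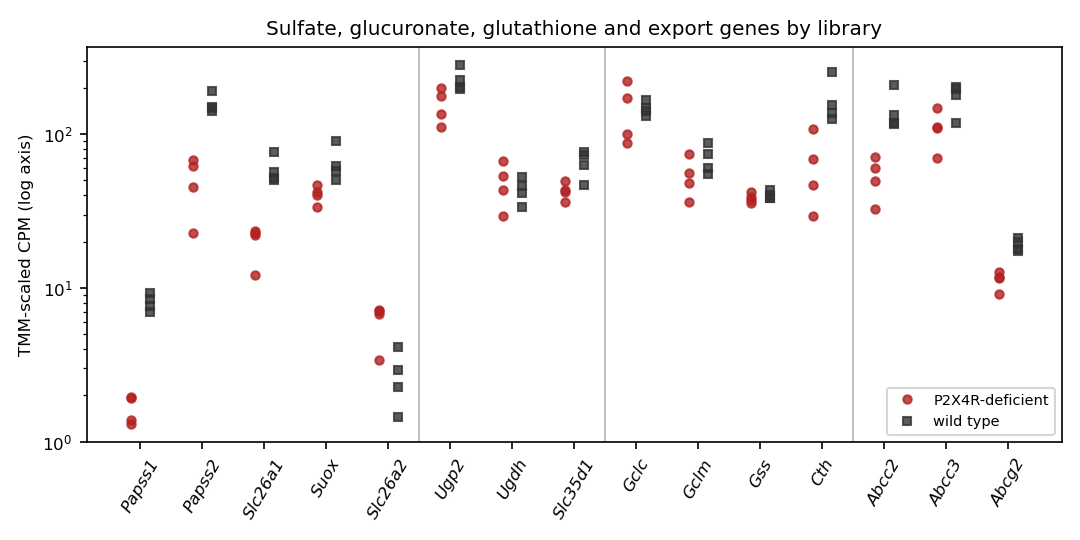
TMM-scaled CPM (log axis) of genes of sulfate and PAPS supply, UDP-glucuronic acid supply, glutathione synthesis and conjugate export, from left to right, in each deficient (circles) and wild-type (squares) library. Papss1, Papss2 and Slc26a1 show no overlap between the groups, whereas Ugdh, Gclc and Gclm overlap.

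Among 7 tested conjugate exporters, 3 fell (42.9%, beside 19.9% called of all genes tested) and 0 rose. Abcc2, which pumps glucuronides and glutathione conjugates into bile, had 32.4, 71.2, 49.5 and 60.6 CPM in deficient and 118, 116, 208 and 132 CPM in wild-type libraries (log2 fold change -1.43, SE 0.26, edgeR adjusted p = 0.00665). Abcg2, which exports sulfates, had a log2 fold change of -0.76 (adjusted p = 0.0109) and Abcc6 one of -1.10 (adjusted p = 0.0217, lost without deficient 3 at 0.0654 and wild type 3 at 0.0707). Abcc3, the exporter on the blood side, had a log2 fold change of -0.67 (adjusted p = 0.0621). Of 3 tested glucuronidase and sulfatase genes, Gusb and Arsb fell (66.7%, beside the same 19.9%), and whether they act on these conjugates was not examined. Neither passed without wild type 3 (0.0662 and 0.055), and Gusb was also lost without wild type 2 (0.0596).

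Enzymes of other conjugation reactions included rises as well as falls, 3 and 8 of 19 tested (57.9%, beside 19.9% called of all genes tested). The methyltransferase Inmt (log2 fold change -1.67, edgeR adjusted p = 0.00462), the glycine conjugation genes Glyat (-1.32, adjusted p = 0.00928) and Acsm5 (-1.70, adjusted p = 0.00928) fell. The nicotinamide methyltransferase Nnmt rose (1.16, adjusted p = 0.00968), from 153 to 240 CPM in wild-type to 314 to 633 CPM in deficient libraries. These 4 genes were called under all 16 alternatives.

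Of 23 tested regulators of conjugating enzymes, 5 fell and 1 rose (26.1%, beside 19.9% called of all genes tested). The aryl hydrocarbon receptor Ahr had 8.45, 33, 13 and 19.7 CPM in deficient and 46.6, 54.1, 75.2 and 58.9 CPM in wild-type libraries (log2 fold change -1.66, SE 0.34, edgeR adjusted p = 0.0099). The estrogen receptor Esr1 had 6.94, 12.7, 11.3 and 15 CPM against 24.2, 30.2, 38.1 and 29.5 CPM (log2 fold change -1.41, SE 0.23, adjusted p = 0.00492). Both were called under all 16 alternatives. Arnt, the partner of Ahr, fell by 0.64 (adjusted p = 0.0278) and Foxa2 rose by 0.77 (adjusted p = 0.031) on the log2 scale, with both calls lost without deficient 3 (0.0656 and 0.071) and without wild type 3 (0.0707 and 0.0924). Arnt was also lost without deficient 1 (0.0537) or wild type 1 (0.054), and Foxa2 without deficient 4 (0.0939), wild type 2 (0.0613) or wild type 4 (0.0619). The replicate block ended both calls (0.0544 and 0.0676), and library totals (0.056) and both limma fits (0.0557 and 0.057) that of Arnt. Transcripts of the regulators Hnf4a (-0.03), Nr1i2 (-0.04) and Nfe2l2 (0.19), named after their values were seen, did not pass the test, and those of the first 2 were above 0 under scaling by library totals.

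Known targets of some of these regulators were counted as well. Called shares were 30% for NRF2, 42.9% for CAR and PXR and 33.3% for Ahr targets, beside 19.9% of all genes tested. Of 10 tested NRF2 targets outside the GST genes, Osgin1 (-2.29, edgeR adjusted p = 0.00536), Hmox1 (-1.45, adjusted p = 0.0114) and Me1 (-0.89, adjusted p = 0.0104) fell and 0 rose, given as log2 fold changes. Of 7 targets of CAR and PXR, Cyp2c29, Cyp3a11 and Cyp2c37 fell and 0 rose, and 0 fell without deficient 3 or without wild type 3. Of 3 tested Ahr targets, Tiparp fell (-1.05, adjusted p = 0.024), a call lost when deficient 1 (0.0559) or 3 (0.0527) or wild type 3 (0.0636) or 4 (0.05002) was left out. Over all these lists together, 33 of 100 genes fell and 5 rose, with a median log2 fold change of -0.38. These calls were 38%, beside 19.9% of all genes tested. Lower calls numbered 14 without wild type 3 and 21 without deficient 3. Higher calls numbered 2 without either of these libraries and 3 without wild type 4.

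Lists of marker genes were counted too, and their part in these differences was not tested. Over all genes tested, 19.9% were called, 10.6% lower and 9.27% higher. Pericentral and neutrophil markers (22.2% each) and cholangiocyte and T and NK cell markers (20% each) were close to that share. Endothelial markers and male-biased genes (25% each) were little above it. Of 11 female-biased liver genes, 7 fell and 0 rose, among them Cyp2a4 (log2 fold change -2.02, edgeR adjusted p = 0.000955), with a summed level of 222 to 409 CPM in deficient and 865 to 1264 CPM in wild-type libraries. Of 4 tested male-biased genes, 1 fell, and the Y-linked genes Ddx3y and Uty had 0 reads in every library. With Kdm5d and Eif2s3y, the Y-linked genes examined summed to 0.181 CPM in deficient 1 and to 0 in every other library. Xist was absent from the deposited genes. Of 9 tested pericentral hepatocyte markers 2 fell, and of 10 periportal ones 2 fell and 1 rose. Neutrophil markers summed to 95.2 to 183 CPM in deficient and 27.8 to 103 CPM in wild-type libraries (2 of 9 rose), Kupffer cell markers to 42.1 to 60.3 CPM against 55.8 to 182 CPM (3 of 9 fell), and cholangiocyte markers to 43.5 to 153 CPM against 195 to 234 CPM (1 of 5 fell). Every marker of these 3 lists had reads in every library, except the neutrophil marker Ly6g. Stellate cell markers summed to 151 to 264 CPM in deficient and 252 to 400.4 CPM in wild-type libraries (3 of 8 fell), and endothelial markers to 48.9 to 83.4 CPM against 43.3 to 111 CPM (2 of 8 fell). Erythroid and platelet markers summed to 231 to 383 CPM against 187 to 1450 CPM (1 of 8 fell, median log2 fold change -1.01). T and NK cell markers summed to 29.87 to 42.7 CPM against 29.87 to 59.5 CPM (1 of 5 fell).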

How the data were processed

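Liver RNA of 4 P2X4R-deficient and 4 wild-type samples was sequenced, per the labels. Per the submitters' processing notes, the tools were cutadapt and HISAT2 2.0.5; no source used here gives the counting program, strand use, annotation or genome build. The authors deposited, per the file headers, read counts and FPKM for each gene and library; FPKM recomputed from counts and gene length differed by at most 7e-05%. Replicate libraries differed beyond counting noise (chi-square per degree of freedom 21.53 to 109.42). Members and gene lists were chosen with earlier results of these data known.

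Deposited counts were tested with edgeR 4.0.16 in R 4.3.3 (quasi-likelihood, TMM, filterByExpr, no covariate) over all 8 libraries, with Benjamini-Hochberg adjustment over 11380 genes and a threshold of 0.05; intervals are at 95%. CPM values are TMM-scaled. On simulated data with 200 changed genes, of 11250 tested, 47.2% of 2-fold and 90.9% of 4-fold changes were recovered, with 8 false calls. Alternatives were library totals without TMM, DESeq2 1.42.0, no expression filter, at least 1 CPM in 4 libraries, limma 3.58.1 on log2 of the deposited FPKM plus 1 or 0.1 (genes at 0.5 FPKM or more in 4 libraries), edgeR's robust option, the replicate number as a block and leaving out each library. Leaving libraries out of the class sums was chosen after seeing the data. Pair ratios used a pseudocount of 0.5 CPM.

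Genes named are P2rx4, all members past the threshold, the 3 of highest FPKM and the 3 largest rises and falls per class, members at an adjusted p of 0.05 to 0.1 and up to 4 called genes of smallest p per list; genes of donor supply are given by value, and the other members to account for each. Coding sequences were aligned with Biopython 1.88 from GENCODE M21 transcripts, in place of the planned protein alignment. Each gene was represented by its transcript of longest coding sequence. Matches to 100-base windows of other genes were counted in the same transcripts.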

Additional observations from a re-analysis of the deposited data

Results flagged for a closer look

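In groups of 4 libraries, a library far from the other 3 by Dixon's criterion was found in 5 of 100 groups of conjugating enzyme values examined, and chance gives about 1 in 20. Of the 5, 4 are wild type 1. Its Sult2a2 level was 241.463 CPM, against 12.1 to 41.1 CPM in the other wild-type libraries. Its Sult2a1 level was 118.39 CPM, against 2.5 to 8.65 CPM. Its Sult2a5 level was 8.29 CPM, against 0.256 to 0.562 CPM. Its Gstm5 level was 5.44 CPM, against 4.1 to 4.15 CPM. The other is Sult1e1 in deficient 3, at 1.85 CPM against 7.7 to 8.79 CPM in the other deficient libraries.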

How the results depend on the processing

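Across 94 members and list genes and the 16 alternatives, 1276 of 1501 comparisons kept their direction and their side of the threshold, 168 lost a call, 14 gained one and 43 changed sign, in 13 genes, none of them called. The cause of these changes was not tested. Over all genes, 1731 were higher with library totals and 1602 or 1594 in limma (pseudocount 1 or 0.1), beside 843, 813 and 814 lower. Leaving out single libraries gave 454 to 1079 higher and 528 to 1309 lower genes, 9 to 17 members, 5 to 10 UGT and 2 to 6 GST genes lower, and 2 to 6 higher and 14 to 34 lower list genes. GST genes lower numbered 3 with library totals, with either limma fit and with the replicate block. The GST sum was 75.5% of wild type in CPM and 83.1% to 91.0% of FPKM without single libraries.

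No pairing by replicate number was seen: same-numbered libraries correlated at -0.140 to 0.117, and 0 of 8 correlated best with their own number. These correlations cannot show whether same-numbered samples were handled together, which is not stated. With the replicate block, 761 genes were higher, 1007 lower, and 16 members lower.

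Log2 fold changes of uncalled genes that changed sign were as follows. With library totals, Ugt2b38 was at 0.0032, Gclc at 0.12, Gss at 0.094, Nr1i2 at 0.11 and Hnf4a at 0.12. In limma with pseudocounts 1 and 0.1, Gstm6 was at 0.00044 and 0.00060, Sult2a5 at 0.26 and 0.58, Ugt2b38 at 0.045 and 0.085, Gclc at 0.024 and 0.023, Gss at 0.081 and 0.092, Nr1i2 at 0.088 and 0.094 and Hnf4a at 0.0830 and 0.0833. Without an expression filter, Gclc was at 0.0073 and Hnf4a at 0.0018. With the replicate block, Sult2a5 was at 0.49. Without single libraries, Gsta2 ranged from -0.55 to 0.0045, Gstm3 from -0.42 to 0.055, Gstt3 from -0.088 to 0.14, Sult1e1 from -0.11 to 0.52, Sult2a5 from -0.97 to 2.34, Sult3a1 from -1.21 to 0.024, Ugt2b38 from -0.63 to 0.43, Ugdh from -0.055 to 0.32, Gclc from -0.30 to 0.15, Nr1i2 from -0.15 to 0.090 and Hnf4a from -0.16 to 0.13.

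Depth limits the 22 untested members, which had at most 26 reads in a library, and a count of 0 allows up to 3 reads.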
